A study of Mus musculus with 57 samples.

Results

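The 10 genes described here are Nfkbia, Nfkbiz, Bcl3, Tnfaip3, Zc3h12a, Nfkb2, Relb, Socs3, Socs1 and Tnf, followed in mouse kidney after ischemia-reperfusion injury (IRI). They were chosen by name, with earlier results of these data known, so counts of members called are not independent of the data. Each probe set whose platform annotation gives exactly 1 symbol, equal to 1 of these names, was taken. That gave 11 probe sets for 10 of the 19938 genes that the arrays measure with such a probe set. All members but Socs3 had 1 probe set, and Socs3 had a second one, which the annotation ties to the gene by 1 accession and which is shown throughout. All 10 genes passed the filter on dim genes.

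The arrays read messenger RNA attached to tagged ribosomes, by translating ribosome affinity purification (TRAP). A tagged ribosomal protein, eGFP-L10a, sits in the Rosa26 locus behind the CAGGS promoter and a floxed stop, and Cre recombinase switches it on in a cell and all its progeny. In each of the 4 lines, mice carried Rosa26-CAGGS-eGFPL10a and 1 Cre: six2-CRE for the nephron, foxd1-CRE for interstitial cells, cdh5-CRE for vascular endothelium and lyz2-CRE for macrophages and monocytes (the myeloid line). Every line had 3 arrays 24 h after IRI (both renal pedicles clamped for 28 min), 3 arrays 24 h after sham surgery without clamping and 3 arrays without surgery, and 3 further nephron arrays were made 4 h after injury, with no sham group of that time analysed here. Without Cre, the wild-type background (TRAP on kidneys with no tag) and the L10a background (mice with the Rosa26-CAGGS-eGFPL10a allele) each had 4 IRI and 2 sham arrays at 24 h. Total RNA of whole kidneys from mice with that allele but no Cre had 3 IRI and 3 sham arrays at 24 h. All mice were males of a mixed C57BL/6 and 129 strain, although the titles call the wild-type mice C57BL/6. They were 6 weeks old in the interstitial and endothelial lines and 8 weeks in the backgrounds and total RNA. In the nephron line IRI and sham mice were 8 weeks and mice without surgery 6 weeks. In the myeloid line IRI mice were 9.5 weeks and sham mice and mice without surgery 7 weeks, so age and injury cannot be told apart there. The tag marks descent: Foxd1 is also active in podocytes, and the labels describe the L10a background as podocytes and some collecting duct cells and give its genotype both as homozygous and as heterozygous. The 57 arrays form 19 groups, called biological replicates in the labels.

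NF-kB is a family of paired transcription factors that waits in the cytoplasm bound to inhibitors of the IkB family. Cytokines such as tumor necrosis factor, encoded by Tnf, lead to phosphorylation and destruction of the inhibitor, and the freed factor switches on cytokines, adhesion molecules and also its own brakes. Among these brakes are a new copy of the inhibitor, enzymes that strip ubiquitin chains from the receptor complex, nucleases that destroy cytokine messages, and the SOCS proteins, which shut down the JAK kinases of the neighbouring cytokine pathway. In the injured kidney, tubule cells, endothelium, interstitial cells and arriving leukocytes are all known to use this pathway.

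Promoter sequence is shown for the 4 members whose 250 bases before a RefSeq start hold a match that bears on these pathways, so that the letters stand beside the values below. The RefSeq table (build GRCm38.p6) held 11 promoters of 8 members and no entry for Nfkbiz or Relb. In the lines below, capitals mark matches to the NF-kB consensus in Nfkbia, Nfkb2 and Tnfaip3, to the AP-1 motif TGANTCA in Tnfaip3 and to the STAT motif TTCNNNGAA in Socs3. Nfkbia and Tnfaip3 are given as the full 250 bases up to the base before the start (chr12:55492648-55492897 and chr10:19015411-19015660, both minus strand). For Socs3 (chr11:117969502-117969531, minus strand) and Nfkb2 (chr19:46304688-46304717, plus strand), 30 bases around a match are given. These lie inside the annotated extent of their genes, which have starts farther upstream.
Nfkbia: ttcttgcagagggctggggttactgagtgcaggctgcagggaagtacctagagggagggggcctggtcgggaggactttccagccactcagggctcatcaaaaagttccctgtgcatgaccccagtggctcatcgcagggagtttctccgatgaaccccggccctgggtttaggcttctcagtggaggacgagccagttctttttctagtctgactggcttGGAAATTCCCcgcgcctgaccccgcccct
Tnfaip3: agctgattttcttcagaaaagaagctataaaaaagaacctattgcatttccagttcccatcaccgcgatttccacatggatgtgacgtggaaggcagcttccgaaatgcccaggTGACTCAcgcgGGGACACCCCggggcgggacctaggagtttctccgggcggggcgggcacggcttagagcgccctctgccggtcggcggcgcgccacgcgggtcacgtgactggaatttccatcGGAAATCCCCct
Nfkb2: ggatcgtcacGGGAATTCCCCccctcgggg
Socs3: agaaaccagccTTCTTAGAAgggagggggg

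In Nfkbia the match lay 20 to 29 bases before the start. Tnfaip3 held an NF-kB match 3 to 12 bases and another 116 to 125 bases before the start, beside the AP-1 match at 130 to 136 bases. The capitals of Nfkb2 are 2 overlapping NF-kB matches on opposite strands. Read on both strands, the NF-kB consensus was found in 5 of the 11 member promoters, from 3 of the 8 genes, and in 7.25% of all 32851 promoters of the same length. The STAT motif was in 2 of the 11 (Socs3 and Nfkb2) against 7.02% of all promoters, and the AP-1 motif in 2 of the 11 (Tnfaip3 and a further start of Nfkb2) against 6.75%. The windows of Socs1, Zc3h12a, Bcl3 and Tnf held none of the 3 motifs. These matches are descriptions of letters.

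Median intensities ran from 105.8 to 128.4 over the 51 TRAP arrays and from 43.9 to 53.3 over the 6 total RNA arrays, which appear to have been normalized apart, so levels are compared within the TRAP arrays only. Endothelial and interstitial marker genes followed the labelled lines. Without surgery the summed intensity of 6 endothelial genes was 29524 to 32400 in the endothelial line against 820 to 912 in the nephron line. That of 5 interstitial genes was 17967 to 19132 in the interstitial line against 1226 to 1708 in the nephron line. Of the 4 lines without surgery, the nephron line had the highest sum of proximal tubule genes (50360 to 51910). It also had the highest sum of thick ascending limb and distal tubule genes (20035 to 20766). The 5 collecting duct genes were not highest there, at 2906 to 3238 against 5050 to 5224 in the myeloid line. Nor were the 4 podocyte genes, at 1035 to 1264 against 4919 to 5508 in the endothelial line. In sham arrays of the untagged wild-type background the interstitial genes summed to 11669 to 12553. Proximal tubule genes there summed to 60346 to 61885, against 45676 to 47361 in nephron sham arrays and 48371 to 50761 in interstitial sham arrays. Thick ascending limb and distal tubule genes there summed to 21945 to 23512, against 18321 to 20105 in nephron sham arrays. The 10 macrophage and monocyte genes summed to 52184 to 54292 in the myeloid line without surgery. In the endothelial line the same 10 genes summed to 28784 to 30862, so its pull-down also read macrophage genes. The 11 neutrophil genes moved with injury: they summed to 21695 to 29416 in myeloid IRI arrays against 2997 to 4051 in myeloid sham arrays, to 14997 to 16382 in endothelial IRI arrays against 1835 to 3763 in sham, and to 3234 to 4111 in interstitial IRI arrays against 772 to 861 in sham. Nephron arrays had neutrophil sums of 900 to 1375 at 24 h after IRI against 830 to 871 in sham. The 10 macrophage and monocyte genes went the other way in 3 lines. Their sum was 13584 to 21582 after IRI against 30570 to 35502 in sham in endothelial arrays, 2503 to 4922 against 5926 to 7268 in interstitial arrays and 38252 to 45885 against 50136 to 54312 in myeloid arrays. In these lines 8, 8 and 2 of the 10 were called lower, where 21.7%, 20% and 14.8% of all genes were. The number in the myeloid line is thus near the share of all genes. Of the 6 endothelial genes, 4 were called higher in nephron arrays at 24 h, where 13.9% of all genes were. The 6 summed to 1262 to 1629 after IRI against 765 to 917 in sham. At 4 h the 6 endothelial genes summed to 1165 to 1234, with 2 of the 6 called higher. The 5 collecting duct genes summed to 4004 to 4264 at 4 h against 2902 to 3484 in sham, with 1 of the 5 called higher. Of all genes, 7.53% were called higher at 4 h. The part of these cells in the responses of the 10 genes was not tested. Proximal tubule genes were bright in every TRAP group, Slc34a1 for example at a mean log2 intensity of 12.48 to 13.24 in the 4 lines without surgery. In nephron arrays the 8 genes summed to 34689 to 37969 at 24 h after IRI against 45676 to 47361 in sham. In interstitial arrays they summed to 24984.5 to 26636 against 48371 to 50761, and in myeloid arrays to 9647 to 10215 against 17198 to 31162. Endothelial arrays overlapped, at 20905 to 22827 against 21367 to 33536. At 4 h the nephron sum was 50172 to 53330. Total RNA had 21397 to 29601 against 37488 to 39069. The part of these shifts in the responses was not tested. In such pull-downs and in whole kidney RNA, a different number of cells of a type and a different amount of message per cell cannot be told apart. Myeloid IRI replicate 2 and total RNA IRI replicate 3 stood apart for some members, as given below.

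At 24 h after IRI, between 5 and 8 of the 10 genes were called higher than sham in every line, and none was called lower (limma, adjusted p under 0.05 over all genes). Of all genes tested, 14.7% were called lower in the nephron line, 20% in the interstitial, 21.7% in the endothelial and 14.8% in the myeloid line. The nephron line had 6 members called higher, Socs3, Nfkbiz, Nfkbia, Bcl3, Nfkb2 and Relb, where 13.9% of all genes tested were called higher. In the interstitial line 8 were higher against 19.3% of all genes, and in the endothelial line 8 against 21.5%. In the myeloid line 5 were higher against 13.1% of all genes. The median log2 fold change of the 10 genes was 0.56 in the nephron line, 0.82 in the interstitial, 1.02 in the endothelial and 0.52 in the myeloid line, while that of all genes tested lay between -0.04 and 0.07. Socs3, Nfkbia and Bcl3 were called in all 4 lines, Socs1 in the endothelial line alone, and Tnf in none. At 4 h the nephron line had 7 members called higher (Socs3, Nfkbiz, Nfkbia, Tnfaip3, Zc3h12a, Relb and Nfkb2) where 7.53% of all genes were, and none called lower, where 10.6% were. The comparisons at 4 h and at 24 h use the same 3 sham arrays, taken 24 h after surgery. With 3 arrays a group, a lack of overlap is common. All IRI arrays lay above all sham arrays for 16.8% of all genes in the nephron line at 4 h and 22.1% at 24 h. At 24 h the share was 27.9% in the interstitial, 34.9% in the endothelial and 23.3% in the myeloid line. All lay below for 27.3%, 28.4%, 24.2%, 28% and 27.4% in the same order.

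**Figure D1:**
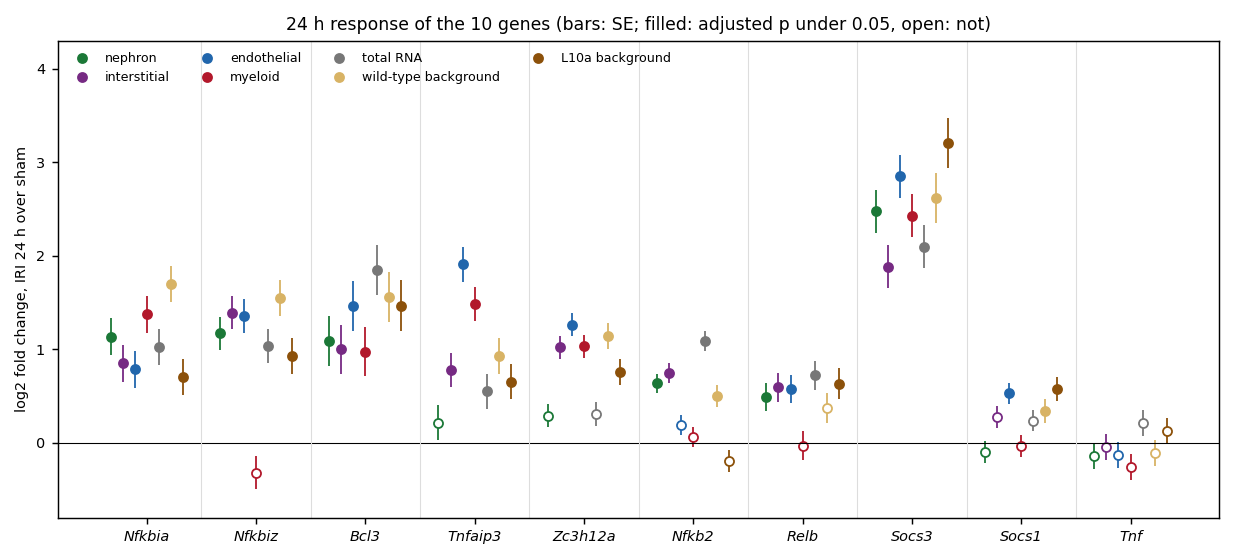
Log2 fold change of IRI at 24 h over sham (y axis) for each of the 10 genes (x axis) in the 4 lines, total RNA and both backgrounds, with the standard error as bars. Filled points had an adjusted p under 0.05. The lowest of the 7 points of Socs3 is 1.88, the points of Tnf lie around 0, and Nfkbiz is at 0.93 or more everywhere except in the myeloid line.

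Nfkbia encodes IkB alpha, the classic inhibitor that holds NF-kB in the cytoplasm and is rebuilt by NF-kB itself. Its log2 intensity in the nephron line was 9.40, 9.56 and 9.41 without surgery, 9.47, 9.11 and 9.39 after sham surgery, 10.54, 10.84 and 10.68 at 4 h and 10.55, 10.48 and 10.34 at 24 h. Every injured array lay above every control array. Over sham, the log2 fold change was 1.36 ± 0.20 at 4 h (SE, adjusted p = 3.1e-06) and 1.14 ± 0.20 at 24 h (adjusted p = 2.4e-05). At 24 h the change was 0.85 ± 0.20 in the interstitial line, 0.79 ± 0.20 in the endothelial line and 1.37 ± 0.20 in the myeloid line, with adjusted p of 6.4e-04, 0.0013 and 1.1e-06. The endothelial line was the brightest for Nfkbia in each state, at 12.74, 12.72 and 12.75 after IRI, 11.97, 11.69 and 12.19 after sham surgery, and 12.21, 12.13 and 12.16 without surgery. Its lowest injured array thus stood above its highest control array, by a smaller step than in the nephron line.

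Nfkbiz encodes IkB zeta, an atypical nuclear member of the inhibitor family that helps NF-kB switch on a subset of secondary genes. Nephron arrays measured 7.36, 7.83 and 7.00 without surgery, 7.32, 7.41 and 7.62 in sham, 9.53, 9.48 and 9.25 at 4 h and 8.91, 8.64 and 8.31 at 24 h. All 4 h arrays were above all 24 h arrays, and these were above all sham arrays. Nfkbiz was higher than sham by 1.98 ± 0.18 at 4 h (adjusted p = 4.8e-10) and 1.17 ± 0.18 at 24 h (adjusted p = 3.9e-06). At 24 h Nfkbiz also rose in the interstitial line, by 1.39 ± 0.18 (adjusted p = 1.2e-07), and in the endothelial line, by 1.36 ± 0.18 (adjusted p = 1.5e-07). Myeloid arrays measured 9.50, 8.95 and 9.49 after IRI, against 9.69, 9.55 and 9.65 in sham. Each injured myeloid array was below each sham array, which held for 27.4% of all genes tested. The difference of -0.32 ± 0.18 did not pass (adjusted p = 0.21). Without surgery the myeloid line held the highest Nfkbiz of the 4 lines, at 9.55, 9.57 and 9.56.

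Bcl3 encodes another nuclear IkB protein, which binds NF-kB dimers without transactivation domains and can raise or lower their target genes. Nephron arrays measured 9.98, 9.73 and 9.68 in sham, 8.96, 9.63 and 9.01 at 4 h and 11.15, 11.01 and 10.49 at 24 h. The 4 h arrays all lay below the sham arrays and the 24 h arrays all above them. Of all genes tested, 27.3% lay wholly below sham at 4 h and 22.1% wholly above it at 24 h. The log2 fold change over sham was -0.60 ± 0.27 at 4 h, which did not pass (adjusted p = 0.12; 0.035 with the compared groups fitted alone), and 1.09 ± 0.27 at 24 h (adjusted p = 0.0017). The arrays without surgery measured 8.98, 10.26 and 9.26 and overlapped both the sham and the 4 h arrays. At 24 h Bcl3 rose by 1.00 ± 0.27 in the interstitial line (adjusted p = 0.0028), by 1.46 ± 0.27 in the endothelial line (adjusted p = 2.7e-05) and by 0.98 ± 0.27 in the myeloid line (adjusted p = 0.0046).

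**Figure D2:**
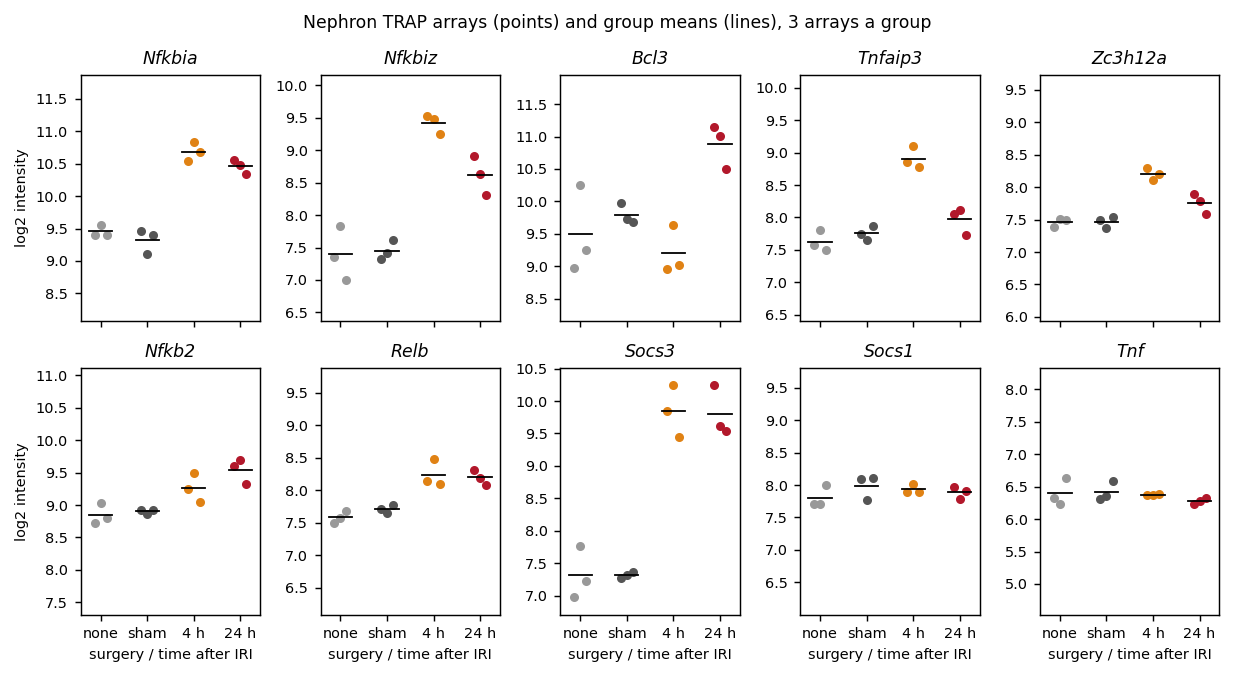
Log2 intensity (y axes, all spanning the same range) of the 10 genes in the nephron line without surgery, after sham surgery, and 4 h and 24 h after IRI (x axes). Points are arrays and lines are means of 3 arrays. Socs3 and Nfkbia stay high at 24 h, Nfkbiz, Tnfaip3 and Zc3h12a are lower at 24 h than at 4 h, and Bcl3 is high at 24 h only.

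Tnfaip3 encodes A20, an enzyme that edits ubiquitin chains on signalling proteins below the tumor necrosis factor and Toll-like receptors and so ends NF-kB signalling. Its nephron values were 7.58, 7.80 and 7.50 without surgery, 7.75, 7.65 and 7.86 in sham, 8.85, 9.10 and 8.77 at 4 h and 8.06, 8.12 and 7.73 at 24 h. The 4 h arrays were all above the sham arrays, while the 24 h arrays overlapped them. The difference from sham was 1.16 ± 0.18 at 4 h (adjusted p = 1.6e-05) and 0.22 ± 0.18 at 24 h (adjusted p = 0.43). Endothelial arrays measured 10.61, 10.60 and 10.64 after IRI, against 8.73, 8.45 and 8.96 in sham, a rise of 1.91 ± 0.18 (adjusted p = 2.7e-10). The myeloid line had 10.53, 9.39 and 10.47 after IRI, against 8.75, 8.49 and 8.70 in sham, and the interstitial line 8.40, 8.55 and 8.59 after IRI, against 7.60, 7.86 and 7.73 in sham. The log2 fold changes were 1.48 ± 0.18 in the myeloid line (adjusted p = 8.5e-08) and 0.78 ± 0.18 in the interstitial line (adjusted p = 8.6e-04). Myeloid IRI replicate 2 was the array with low Tnfaip3, and without it the myeloid log2 fold change was 1.85, with the same 5 members called. It also had the lowest neutrophil sum of its group, 21695 against 29183 and 29416, and the highest macrophage and monocyte sum, 45885 against 39326 and 38252.

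Zc3h12a encodes Regnase-1, a nuclease that cuts the messages of interleukin 6 and other cytokines. Its course in the nephron line was similar to that of Tnfaip3 but smaller: 7.39, 7.51 and 7.49 without surgery, 7.49, 7.37 and 7.53 in sham, 8.30, 8.11 and 8.21 at 4 h and 7.90, 7.79 and 7.59 at 24 h. Neither injured group overlapped the control arrays. Zc3h12a differed from sham by 0.74 ± 0.12 at 4 h (adjusted p = 3.5e-05) and by 0.29 ± 0.12 at 24 h, which did not pass (adjusted p = 0.076). The 24 h difference passed with the compared groups fitted alone (adjusted p = 0.038) and without nephron IRI replicate 3 at 24 h (adjusted p = 0.039). In the other lines Zc3h12a rose at 24 h by 1.02 ± 0.12 (interstitial, adjusted p = 3.8e-08), 1.26 ± 0.12 (endothelial, adjusted p = 3.6e-10) and 1.03 ± 0.12 (myeloid, adjusted p = 4.3e-08).

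**Figure D3:**
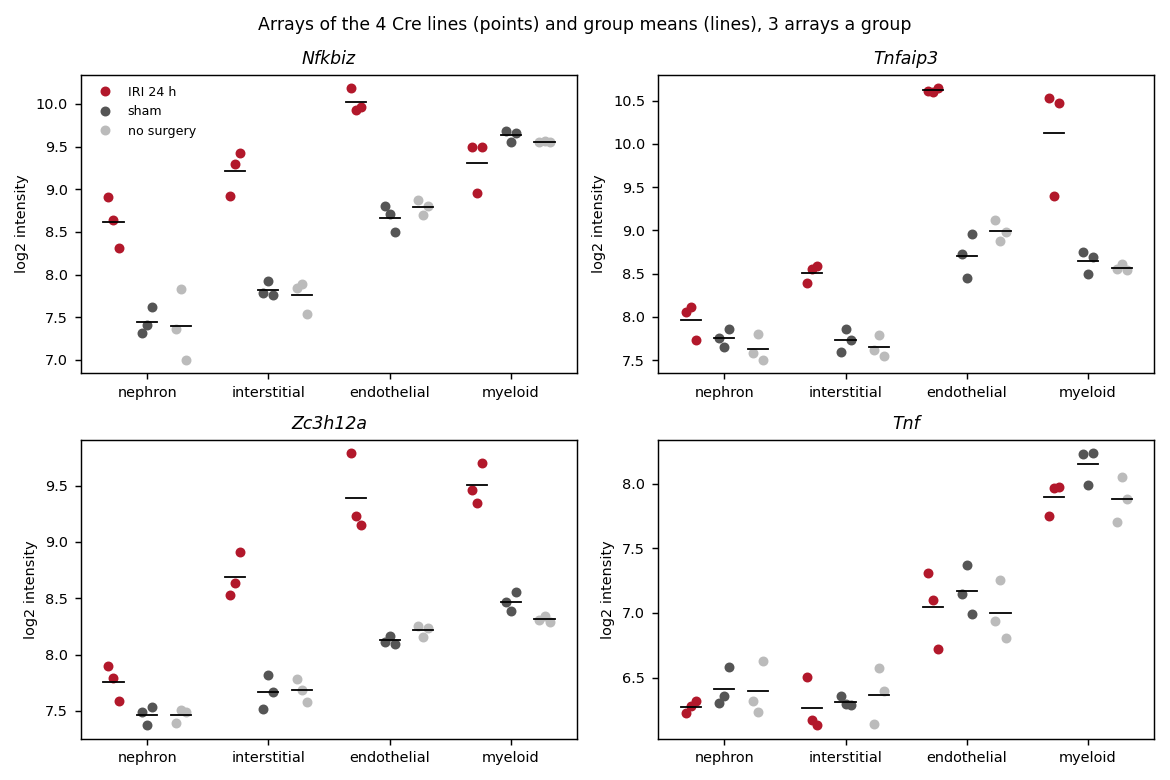
Log2 intensity (y axes) of Nfkbiz, Tnfaip3, Zc3h12a and Tnf in the 4 lines (x axes) 24 h after IRI, after sham surgery and without surgery. Points are arrays and lines are means of 3 arrays. Tnfaip3 after IRI overlaps the controls in the nephron line and stands above them in the other 3, Nfkbiz after IRI lies below the controls in the myeloid line, and Tnf is highest in the myeloid line.

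Nfkb2 and Relb encode the partners of the non-canonical NF-kB dimer, whose precursor subunit is made from Nfkb2 and is cut to the active form after signals such as TWEAK or lymphotoxin. Nephron arrays of Nfkb2 measured 8.72, 9.03 and 8.79 without surgery, 8.93, 8.87 and 8.93 in sham, 9.25, 9.49 and 9.05 at 4 h and 9.60, 9.70 and 9.32 at 24 h. The arrays of both injured groups lay above all sham arrays and overlapped each other. Nfkb2 was higher than sham by 0.36 ± 0.10 at 4 h (adjusted p = 0.014) and by 0.64 ± 0.10 at 24 h (adjusted p = 1.2e-05). The call at 4 h was lost without nephron IRI replicate 2 at 4 h (adjusted p = 0.16) and without sham replicate 2 (adjusted p = 0.053). In the interstitial line Nfkb2 measured 9.92, 10.04 and 9.91 after IRI, against 9.17, 9.21 and 9.24 in sham, a rise of 0.75 ± 0.10 (adjusted p = 5.1e-07). The endothelial difference was 0.19 ± 0.10 (adjusted p = 0.14), which passed with quantile normalization over all arrays (0.29, adjusted p = 0.049) and without sham replicate 3 (0.29, adjusted p = 0.038). The myeloid difference was 0.06 ± 0.10 (adjusted p = 0.74).

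Relb rose in the nephron line at both times. It measured 7.49, 7.58 and 7.68 without surgery, 7.71, 7.64 and 7.77 in sham, 8.14, 8.47 and 8.09 at 4 h and 8.32, 8.19 and 8.08 at 24 h, with no overlap between injured and control arrays. The log2 fold change was 0.53 ± 0.15 at 4 h (adjusted p = 0.012) and 0.49 ± 0.15 at 24 h (adjusted p = 0.013). These calls were lost without nephron IRI replicate 2 at 4 h (adjusted p = 0.10) and without nephron IRI replicate 1 at 24 h (adjusted p = 0.071). At 24 h Relb also rose by 0.59 ± 0.15 in the interstitial line (adjusted p = 0.0020) and by 0.58 ± 0.15 in the endothelial line (adjusted p = 0.0024). Myeloid arrays measured 8.58, 8.10 and 8.55 after IRI, against 8.58, 8.26 and 8.48 in sham, and the difference was -0.03 ± 0.15 (adjusted p = 0.93). Relb and Bcl3 lie on the same chromosome (chr7:19606217-19629438 and chr7:19808462-19822824, GRCm38.p6).

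Socs3 encodes an inhibitor of JAK kinases that is switched on by STAT3 and ends signals of the interleukin 6 family. Of the 10 genes it had the largest log2 fold change over sham in each line and at both times in the nephron. On the probe set with the higher mean, nephron arrays measured 6.97, 7.77 and 7.22 without surgery, 7.28, 7.32 and 7.37 in sham, 9.85, 10.24 and 9.45 at 4 h and 10.24, 9.62 and 9.54 at 24 h. Every injured array was above every control array, and the 4 h and 24 h arrays overlapped. Socs3 rose over sham by 2.52 ± 0.23 at 4 h (adjusted p = 5.1e-10) and by 2.48 ± 0.23 at 24 h (adjusted p = 3.5e-10), which is 5.75-fold and 5.57-fold. At 24 h the endothelial line measured 11.63, 11.71 and 11.64 after IRI, against 8.93, 8.81 and 8.68 in sham, a rise of 2.85 ± 0.23 (adjusted p = 5.0e-12). The myeloid line measured 11.91, 11.35 and 12.05 after IRI, against 9.41, 9.37 and 9.24 in sham, a rise of 2.43 ± 0.23 (adjusted p = 3.1e-10). The interstitial line measured 9.92, 10.63 and 11.21 after IRI, against 8.36, 9.01 and 8.74 in sham, a rise of 1.88 ± 0.23 (adjusted p = 4.4e-08), and its injured arrays had the widest spread of the 4 lines.

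The second probe set of Socs3 passed the test at 24 h in 3 lines and not in the nephron line. Without surgery its 12 arrays of the 4 lines all lay between 6.88 and 7.35. Its group mean intensities in sham arrays and arrays without surgery were 129.1 to 154.6 in the 4 lines. The TRAP array medians were 105.8 to 128.4. This probe set may not show a small change from such a dim signal. After IRI at 24 h it measured 9.14, 9.45 and 9.29 in the endothelial line, against 7.26, 7.01 and 7.04 in sham, a rise of 2.19 ± 0.33 (adjusted p = 1.8e-06). The myeloid arrays measured 9.56, 8.60 and 9.70 after IRI, against 7.20, 7.27 and 7.35 in sham, a rise of 2.02 ± 0.33 (adjusted p = 1.3e-05). In interstitial arrays it rose by 1.07 ± 0.33 (adjusted p = 0.010). Its nephron values were 7.07, 6.92 and 7.05 in sham, 7.56, 8.04 and 7.55 at 4 h and 7.65, 7.23 and 7.29 at 24 h. All injured nephron arrays were above all sham arrays, but the log2 fold changes of 0.70 ± 0.33 at 4 h and 0.38 ± 0.33 at 24 h did not pass (adjusted p = 0.15 and 0.45). With the 2 probe sets averaged, the nephron log2 fold change of Socs3 was 1.61 at 4 h and 1.43 at 24 h, and both passed (adjusted p = 5.56e-06 and 1.67e-05).

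**Figure D4:**
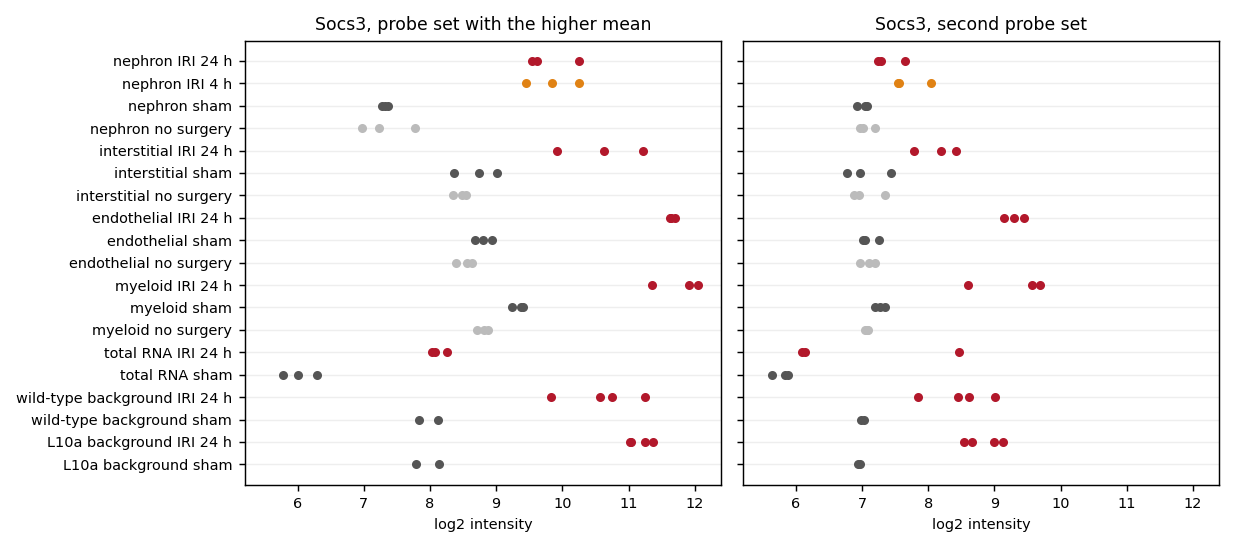
Log2 intensity (x axes) of both Socs3 probe sets in every array of the 19 groups (rows), red for IRI at 24 h, orange for IRI at 4 h, dark grey for sham and light grey for no surgery. On the left, injured and control arrays are apart in all lines. On the right, nephron IRI arrays at 24 h lie between 7.23 and 7.65, close to their controls, and total RNA IRI replicate 3 stands alone at 8.47. The overall intensity of the total RNA arrays is lower than that of the others.

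Socs1, the relative of Socs3 best known for ending interferon signals, was called in 1 line. In the endothelial line it measured 8.45, 8.58 and 8.64 after IRI, against 8.08, 7.96 and 8.04 in sham, a rise of 0.53 ± 0.12 (adjusted p = 3.5e-04). In the interstitial line the difference of 0.28 ± 0.12 was short of the threshold (adjusted p = 0.059), with no overlap between the 2 groups. It passed without the total RNA arrays in the fit (adjusted p = 0.041). Of all genes tested, 27.9% had all interstitial IRI arrays above all sham arrays. The nephron difference was -0.06 ± 0.12 at 4 h and -0.10 ± 0.12 at 24 h, and the myeloid one -0.03 ± 0.12 at 24 h, with adjusted p of 0.82, 0.60 and 0.90.

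Tnf, the ligand at the head of the pathway, was not called in any comparison of IRI with sham, while its level differed between lines. Its group mean intensities were 77.1 to 85.4 in the nephron and interstitial lines, below the TRAP array medians of 105.8 to 128.4. At such a dim signal a change, or an order of these 2 lines, may not be readable. In the myeloid line the group means were 235.6 to 284.2. The nephron line measured 6.31, 6.36 and 6.58 in sham, 6.37, 6.37 and 6.38 at 4 h and 6.23, 6.28 and 6.32 at 24 h, within the range of its arrays without surgery (6.32, 6.24 and 6.63) except for the lowest array at 24 h. The log2 differences from sham at 24 h were -0.14 ± 0.14 in the nephron line, -0.05 ± 0.14 in the interstitial line, -0.13 ± 0.14 in the endothelial line and -0.25 ± 0.14 in the myeloid line, with adjusted p of 0.51, 0.81, 0.46 and 0.18. Myeloid arrays measured 7.75, 7.97 and 7.97 after IRI, against 8.23, 7.99 and 8.23 in sham. Each injured array was below each sham array, which held for 27.4% of all genes tested. In each of the 3 states at 24 h or without surgery, the group mean was highest in the myeloid line, then the endothelial, the nephron and the interstitial line, and arrays of the last 2 overlapped. The secreted protein was not measured.

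Between 4 h and 24 h in the nephron line, 2 members were higher at 24 h (14.9% of all genes were) and 3 were lower (12.8% of all genes were). Bcl3 was higher at 24 h by 1.68 ± 0.27 (adjusted p = 6.7e-06), with all 24 h arrays above all 4 h arrays. Nfkb2 was higher by 0.28 ± 0.10 (adjusted p = 0.041), but its arrays overlapped, and the call was lost in 6 of the alternatives, for example to 0.18 without nephron IRI replicate 3 at 4 h (adjusted p = 0.31). Tnfaip3 was lower at 24 h by 0.94 on the log2 scale (difference -0.94 ± 0.18, adjusted p = 1.5e-04), Nfkbiz by a difference of -0.81 ± 0.18 (adjusted p = 6.5e-04) and Zc3h12a by one of -0.45 ± 0.12 (adjusted p = 0.0057). The Zc3h12a call was lost without nephron IRI replicate 3 at 24 h (difference -0.36, adjusted p = 0.053). Socs3, Nfkbia and Relb differed between the times by -0.05 ± 0.23, -0.23 ± 0.20 and -0.04 ± 0.15, and none of the 3 passed (adjusted p = 0.93, 0.46 and 0.91).

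Sham surgery was compared with no surgery in each line. No member was called in any line, where 1.62% of all genes were called in the nephron line, 10.3% in the interstitial, 0.738% in the endothelial and 1.68% in the myeloid line. At an unadjusted p under 0.05 there were 0, 1, 2 and 2 members in the same order of lines. The share of all genes at that p was not counted, so these numbers are no result about the members. The largest differences were those of Socs3 in the myeloid line, 0.54 ± 0.23 (adjusted p = 0.33), with sham arrays at 9.41, 9.37 and 9.24 against 8.82, 8.88 and 8.71 without surgery, and of Bcl3 there, 0.48 ± 0.27 (adjusted p = 0.60).

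Levels without surgery were compared among the lines, and Bcl3 was called in none. Each line was compared with the average of the remaining 3 lines. Nephron arrays were lower for 9 of the 10, where 22.1% of all genes were lower, with Bcl3 the exception (-0.16 ± 0.22, adjusted p = 0.57). For 6 members the interstitial line was lower, where 19.6% of all genes were. Endothelial arrays were higher for 6 (20.9% of all genes) and myeloid arrays for 6 (16.9% of all genes). Nfkbia in the endothelial line was 1.85 ± 0.16 above the other lines (adjusted p = 1.0e-11), and in the nephron line it was at -1.76 ± 0.16 (adjusted p = 1.8e-11). Tnf in the myeloid line was 1.29 ± 0.11 above the others (adjusted p = 1.3e-11), with arrays at 7.71, 8.05 and 7.88, and Nfkbiz there was 1.58 ± 0.15 above (adjusted p = 6.5e-11). Relb and Tnfaip3 were highest in the endothelial line, by 0.87 ± 0.12 and 1.04 ± 0.15 (adjusted p = 5.4e-07 and 6.0e-07). By mean log2 intensity, Nfkbia was ordered endothelial (12.17), myeloid (10.98), interstitial (10.51) and nephron (9.46), and only the arrays of the myeloid and interstitial neighbours overlapped. Socs3 was ordered myeloid (8.80), endothelial (8.53), interstitial (8.46) and nephron (7.32), where the endothelial and interstitial neighbours overlapped. On its second probe set no line passed the test against the others, with differences of -0.02 to 0.03. In the endothelial line the macrophage and monocyte genes given above were bright, and their part in these levels was not tested.

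The size of the 24 h response was compared among the lines. A moderated F test of any difference among the 4 responses called 6 of the 10 genes, where 46.6% of all genes were called. Nfkbiz had the smallest adjusted p of the 10 (1.7e-06), followed by Tnfaip3 (1.2e-05), Zc3h12a (1.7e-04), Nfkb2 (4.0e-04), Socs1 (0.0066) and Relb (0.045). Socs3 (adjusted p = 0.082), Nfkbia (0.21), Bcl3 (0.61) and Tnf (0.80) did not pass. The second probe set of Socs3 passed (adjusted p = 0.0051).

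Set against the mean response of the other 3 lines, 2 members responded less in the nephron line (11.4% of all genes did). Tnfaip3 differed by -1.17 ± 0.21 (adjusted p = 9.8e-05) and Zc3h12a by -0.81 ± 0.14 (adjusted p = 6.7e-05), both messages that had been higher at 4 h, and the second probe set of Socs3 by -1.38 ± 0.38 (adjusted p = 0.0084). Responses in the interstitial line were larger for Nfkbiz, by 0.66 ± 0.21 (adjusted p = 0.027), and Nfkb2, by 0.45 ± 0.12 (adjusted p = 0.0083), where 7.78% of all genes had a larger response. These 2 calls became 1 without interstitial IRI replicate 2, 1 without interstitial sham replicate 3 and 4 without myeloid IRI replicate 2. In the endothelial line 4 were larger (14% of all genes): Tnfaip3 by 1.08 ± 0.21, Nfkbiz by 0.61 ± 0.21, Socs1 by 0.48 ± 0.13 and Zc3h12a by 0.48 ± 0.14, with adjusted p of 2.1e-04, 0.025, 0.0070 and 0.011. Without endothelial IRI replicate 1 the number was 2. Myeloid responses were smaller for 3 (9.14% of all genes): Nfkbiz by a difference of -1.62 ± 0.21, Relb by -0.58 ± 0.18 and Nfkb2 by -0.46 ± 0.12, with adjusted p of 4.95e-07, 0.018 and 0.0057. After IRI the neutrophil sums given above were highest in the myeloid and endothelial lines, and their part in these differences was not tested.

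Most of the 10 genes also rose in the pull-downs without Cre. In the wild-type background 8 were higher after IRI, where 20.2% of all genes were: Socs3 by 2.62 ± 0.26, Nfkbia by 1.70 ± 0.19, Bcl3 by 1.56 ± 0.27, Nfkbiz by 1.55 ± 0.19, Zc3h12a by 1.14 ± 0.14, Tnfaip3 by 0.93 ± 0.19, Nfkb2 by 0.50 ± 0.12 and Socs1 by 0.34 ± 0.13. The adjusted p of Socs1 was 0.029 and was lost under several alternatives, 0.16 with the compared groups alone among them, and that of Nfkb2 was lost without sham replicate 1 (adjusted p = 0.077). In the L10a background 8 were higher, where 19% of all genes were, led by Socs3 (3.21 ± 0.26, adjusted p = 5.2e-13) and Bcl3 (1.47 ± 0.27, adjusted p = 2.5e-05). The call of Tnfaip3 there (0.66 ± 0.19, adjusted p = 0.0047) was lost without sham replicate 2 (adjusted p = 0.054). Nfkb2 differed by -0.19 ± 0.12 in the L10a background (adjusted p = 0.19). Marker genes moved in these pull-downs too. In the wild-type background the neutrophil genes summed to 1022 to 2502 after IRI against 846 to 849 in sham, with 8 of 11 called higher (20.2% of all genes were). The macrophage and monocyte genes there summed to 2174 to 2529 against 3352 to 3437. In the L10a background the endothelial genes summed to 14438 to 17004 after IRI against 10563 to 10797 in sham. Of these 6, 3 were called higher and 1 lower, where 19% and 19.4% of all genes were. The collecting duct genes there summed to 8782 to 10692 against 19943 to 19973. Their part in the members' rises was not tested.

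Because untagged kidneys also yield message in this purification, the injured arrays of each line were set against the injured wild-type background. Injured nephron arrays were lower than that background for 5 members (18.7% of all genes were) and 1 was higher (25.3% of all genes were). The higher one was Bcl3, by 1.32 ± 0.24 (adjusted p = 1.3e-05), at 11.15, 11.01 and 10.49 against 9.17, 9.97, 9.84 and 9.28. The lower ones were Nfkbia at -1.04 ± 0.17, Tnfaip3 at -0.96 ± 0.17, Socs3 at -0.79 ± 0.23, Nfkb2 at -0.50 ± 0.10 and Zc3h12a at -0.42 ± 0.12, with adjusted p of 1.6e-06, 5.2e-06, 0.0047, 7.3e-05 and 0.0046. The injured background pull-down thus read higher for these 5 messages than the injured nephron pull-down. The part of unspecific binding in the nephron values was not tested. In the interstitial line Bcl3 and Zc3h12a were higher (17.8% of all genes were) and Tnfaip3 was lower (16.3%), by 0.72 ± 0.24, 0.51 ± 0.12 and -0.42 ± 0.17, with adjusted p of 0.016, 8.6e-04 and 0.045. The call of the 1 lower member, Tnfaip3, was lost with the replicate number as a block, which left 2 members called. That number of 3 members fell to 1 or 2 with any 1 of the 7 arrays left out. It was 1 without interstitial IRI replicate 3 and 1 without wild-type background IRI replicate 4. The endothelial line was higher for 9 members (26.5% of all genes were) and the myeloid line for 7 (27.8%). Nfkb2 was the 1 lower member in both, by -0.50 ± 0.10 in the endothelial line (23% of all genes were lower) and -0.32 ± 0.10 in the myeloid line (30.4%). Tnf was 1.44 ± 0.13 higher in the injured myeloid line than in that background (adjusted p = 3.0e-13).

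In total RNA of the whole kidney 7 members were higher after IRI, where 15.7% of all genes were. The log2 fold changes were 2.10 ± 0.23 for Socs3 (adjusted p = 1.5e-08), 1.85 ± 0.27 for Bcl3 (adjusted p = 1.8e-06), 1.09 ± 0.10 for Nfkb2 (adjusted p = 1.1e-09), 1.04 ± 0.18 for Nfkbiz (adjusted p = 3.1e-05) and 1.03 ± 0.20 for Nfkbia (adjusted p = 1.2e-04). Relb measured 6.30, 6.16 and 7.13 after IRI, against 5.91, 5.73 and 5.77 in sham, a rise of 0.72 ± 0.15 that was 0.42 without IRI replicate 3 (adjusted p = 4.0e-04 and 0.0089). Without that array 6 members were called. Tnfaip3 measured 5.78, 5.69 and 6.34 after IRI, against 5.19, 5.45 and 5.52 in sham, a rise of 0.55 ± 0.18 (adjusted p = 0.022) that was 0.35 without IRI replicate 3 (adjusted p = 0.19) and 0.45 without sham replicate 1 of total RNA (adjusted p = 0.11). The second probe set of Socs3 measured 6.09, 6.14 and 8.47, against 5.88, 5.63 and 5.83, and IRI replicate 3 stood far above the other injured arrays. In IRI replicate 3 the endothelial genes summed to 1645, against 3563 and 5262 in the other two, and the proximal tubule genes to 29601, against 22014 and 21397. With the total RNA arrays fitted alone, 3 members were called, where 689 of 13829 genes were. Nfkbiz, Nfkbia, Relb and Tnfaip3 lost the call in that fit (adjusted p = 0.061, 0.091, 0.19 and 0.20).

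Other genes of the same pathways were counted by lists that were also chosen with earlier results of these data known. The counts are to be read against all genes tested. Of these, 7.53% rose and 10.6% fell in the nephron line at 4 h and 13.9% rose and 14.7% fell there at 24 h. At 24 h 19.3% rose and 20% fell in the interstitial line, 21.5% and 21.7% in the endothelial line, and 13.1% and 14.8% in the myeloid line. Of 25 measured receptors and core signalling genes, 11 rose and 2 fell in the nephron line at 24 h, 5 rose and 2 fell there at 4 h, and at 24 h 13 rose and 3 fell in the interstitial line, 12 and 2 in the endothelial line, and 13 and 1 in the myeloid line. Tnfrsf12a, the receptor of TWEAK, rose in all of these, by 2.13 ± 0.23 at 4 h and 2.44 ± 0.23 at 24 h in the nephron line and by 3.37 ± 0.23 in the interstitial line. Rel, which encodes the NF-kB subunit c-Rel, rose by 1.77 ± 0.15 in the nephron line at 4 h, and Irak3, a brake on Toll-like receptor signalling, by 2.08 ± 0.22 there at 24 h. Tnfrsf1b, which encodes a receptor of tumor necrosis factor, rose by 1.41 ± 0.16 in the nephron line at 24 h. The list's median log2 fold change in the nephron line was -0.05 at 4 h and 0.28 at 24 h, beside -0.05 and -0.04 for all genes tested.

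The list of A20 partners and ubiquitin editors also holds genes not known as either, Tnfaip2 and Tnfaip8 among them. Of its 14 measured genes, 4 rose and 1 fell in the nephron line at 4 h, and 5 rose and 1 fell there at 24 h. In the interstitial, endothelial and myeloid lines 5, 7 and 7 rose and 2, 3 and 0 fell. The shares of all genes that rose were 7.53% and 13.9% in the nephron line at 4 h and 24 h and 19.3%, 21.5% and 13.1% in the other lines. Birc3, a ubiquitin ligase of the receptor complex, rose by 0.96 ± 0.18 at 4 h and 1.18 ± 0.18 at 24 h in the nephron line, and Tnfaip8 fell, at -0.73 ± 0.20 and -1.07 ± 0.20. Of 11 measured genes that act on cytokine messages, as Zc3h12a does, 2 rose in each line at 24 h and 2 in the nephron line at 4 h, and between 1 and 3 fell. These numbers are near the shares of all genes, 13.1% to 21.5% of which rose at 24 h, and are no result about the list. Zfp36, which encodes the decay factor tristetraprolin, rose by 1.73 ± 0.20 in the nephron line at 4 h and by 0.52 ± 0.20 there at 24 h. In the myeloid line, Zc3h12c rose by 0.80 ± 0.15 and the relatives Zc3h12d and Zc3h12b fell, at -1.10 ± 0.14 and -0.64 ± 0.14.

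Of 23 measured JAK-STAT genes and other SOCS members, 5 rose and 6 fell in the nephron line at 4 h, and 8 rose and 5 fell there at 24 h, where 7.53% and 10.6% of all genes did so at 4 h and 13.9% and 14.7% at 24 h. At 24 h 7 rose and 6 fell in the interstitial line, 9 and 7 in the endothelial line, and 8 and 4 in the myeloid line. Osmr, the oncostatin M receptor, rose by 1.16 ± 0.37 at 4 h and 3.62 ± 0.37 at 24 h in the nephron line (adjusted p = 0.027 and 3.1e-09), and Stat3 by 0.83 ± 0.12 and 0.98 ± 0.12. Socs2 rose by 2.48 ± 0.32 in the myeloid line, 1.39 ± 0.32 in the endothelial and 1.25 ± 0.32 in the interstitial line at 24 h. Of 21 measured cytokine and adhesion targets of NF-kB, 9 rose in the nephron line at 4 h and 9 at 24 h, 13 in the interstitial, 13 in the endothelial and 11 in the myeloid line, while at most 2 fell in any of these comparisons. Of all genes 7.53%, 13.9%, 19.3%, 21.5% and 13.1% rose in the same comparisons. Il6 rose by 5.41 ± 0.32 in the interstitial line and Cxcl2, a neutrophil attractant, by 5.58 ± 0.41. Gadd45b, a stress gene known as an NF-kB target, rose by 3.37 ± 0.26 in the nephron line at 4 h, and Cxcl2 by 2.70 ± 0.41 there at 24 h. The list's median was 0.66 at 4 h and 0.38 at 24 h in the nephron line, 0.67 in the interstitial, 0.98 in the endothelial and 0.56 in the myeloid line.

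Across the means of the 17 TRAP groups, the genes with the pattern most like Socs3 were Lemd3 (Pearson r = 0.94), Stat3 (0.94), Cebpb (0.94), Junb (0.94) and Sbno2 (0.93), among 6982 genes with an SD of group means above 0.5. For Tnfaip3 they were Mideas (0.93), Arid5a (0.92), Pim1 (0.91), AA467197 (0.91) and Sprtn (0.91). Among the 10 genes themselves the highest correlation was that of Tnfaip3 with Zc3h12a (0.90) and the lowest that of Socs1 with Nfkb2 (0.13). These values describe 17 groups that share the injury, the lines and the same normalization.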

How the data were processed

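RNA from TRAP or total RNA was hybridised to 57 Affymetrix Mouse Gene 1.0 ST arrays. The deposited values are linear probe set intensities, summarized by the authors with RMA in Affymetrix Expression Console 1.3.1, per the submitters' processing notes. Values ran from 7.15 to 19571 and were converted to log2 here. The design had assumed log2 values. The number of arrays limits the precision.

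Of 35556 probe sets, 21789 carried 1 symbol and 1621 several. Per gene the probe set with the highest mean was used, 19938 genes, and genes with a log2 intensity above 5 in at least 3 arrays were tested. The group means were modelled by lmFit and eBayes of limma 3.58.1 (R 4.3.3), on 45 arrays without the 12 background arrays (19244 genes, 30 residual degrees of freedom, prior 3.06) and, for comparisons with background arrays, on all 57 (19302 genes, 38 residual degrees of freedom, prior 3.18). Genes were called at a p under 0.05 after Benjamini-Hochberg adjustment over every gene tested. Errors after ± are standard errors of the fit. They come from a single spread per gene, shared by all groups of the fit, total RNA included. A gene thus has the same error for IRI against sham at 24 h in each of the 4 lines. The spread of a single group can be wider. Tnfaip3 had an SD of 0.64 in myeloid IRI arrays, and Socs3 had 0.65 in interstitial IRI arrays at 24 h. The second Socs3 probe set was tested in a fit of all probe sets. Nothing in the labels says more than "biological replicate", so p-values measure the shared spread between these samples, not that of the line named.

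The members, the 5 pathway lists (102 genes, 94 measured) and the 9 marker lists (61 genes, 59 measured) were chosen with earlier results of these data known. Named were all members, up to 3 called genes with the largest change per pathway list and comparison, and the 5 genes most like Socs3 and Tnfaip3. Marker sums add linear intensities. Figures used Python 3.11.15 and matplotlib 3.10.9. The fit was tested on simulated data. Same-numbered arrays were not paired in the fit, as no comparison had a correlation of deviations over 0.1 in all pairs. Alternatives were the filter, the probe set rule, quantile normalization, the arrays in the fit, the replicate block and leaving out each array. Background correction and a scan or slide block could not be tried on summarized values.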

Additional observations from a re-analysis of the deposited data

Results flagged for a closer look

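Differences among the 24 h responses of the 4 lines passed the moderated F test (limma, Benjamini-Hochberg adjusted over all genes) for 6 of the 10 genes and for the second probe set of Socs3. The same test called 46.6% of all genes, so the number of members called is near that share. Adjusted p was 1.71e-06 for Nfkbiz, whose response was 1.17, 1.39 and 1.36 in the nephron, interstitial and endothelial lines and -0.32 in the myeloid line. It was 1.24e-05 for Tnfaip3, with responses of 0.22, 0.78, 1.91 and 1.48 in the same order of lines, and 1.75e-04 for Zc3h12a, with 0.29, 1.02, 1.26 and 1.03. For Nfkb2 it was 3.99e-04, with responses of 0.64, 0.75, 0.19 and 0.06. The second probe set of Socs3 had an adjusted p of 0.00514, with responses of 0.38, 1.07, 2.19 and 2.02. Socs1 had 0.00662, with -0.10, 0.28, 0.53 and -0.03, and Relb had 0.0448, with 0.49, 0.59, 0.58 and -0.03.

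Among the 22 groups of 4 arrays and probe sets examined for an array far from the others, 1 stood out, and chance marks about 1 in 20 such groups. Zc3h12a measured 8.58 in L10a background IRI replicate 2, and its nearest neighbour was 8.38.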

How the results depend on the processing

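Of the alternatives other than leaving out an array, only fitting the total RNA arrays alone moved a count of called members by over 1.5 times, to 3 from 7, with 689 of 13829 genes called. The arrays with the same replicate number were not paired in the fit, since correlations of their deviations ran from -0.24 to 0.31. So few arrays cannot exclude a pairing. In the nephron line all 3 arrays at 24 h correlated best with the 4 h array of the same number (0.03 to 0.07). With the replicate block, members called were 6 in the nephron line at 24 h and 7 at 4 h, 9 in the interstitial, 8 in the endothelial, 5 in the myeloid line, 7 in total RNA, 7 in the wild-type and 8 in the L10a background, and all other counts also stayed within 1.5 times. Leaving out 1 array in turn (69 refits) gave 2 to 5 called members for the endothelial response against the other lines (4 with all arrays), the lowest without endothelial IRI replicate 1. It gave 1 to 4 for the interstitial response (2 with all arrays) and 1 to 2 for interstitial IRI against the wild-type background (3 with all arrays). Single genes were followed for IRI against sham and for nephron 24 h against 4 h only. An alternative value was counted where it or the main fit was called, and always for the other probe set of Socs3. Of these values, 717 kept their direction and side of the threshold, 29 lost the call, 13 gained it and none changed sign with a call. Precision is limited by 2 to 4 arrays per group. Sham arrays at 4 h were not analysed here.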
